A study of Canis lupus familiaris with 21 samples.

Results

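The collagens, the proteases that cut them, the inhibitors of these proteases and the enzymes that cross-link collagen were followed across the stages and areas of canine cutaneous histiocytoma (CCH), a skin tumor of dogs that arises from Langerhans cells and often regresses. Members were taken by gene name (COL, MMP, TIMP, ADAMTS, LOX and LOXL, without COL17A1, which was kept as a keratinocyte marker), and 10 or more raw reads in 5 or more of the 21 samples were required. Of 78 gene names that matched, 47 met the count rule, among 21399 entries in all, of which 12505 met it. The 47 members were 22 of 36 collagens, 11 of 17 matrix metalloproteinases (MMPs), 2 of 3 tissue inhibitors of metalloproteinases (TIMPs), 9 of 17 ADAMTS proteases and 3 of 5 lysyl oxidases. Their RefSeq positions on UU_Cfam_GSD_1.0 were matched for 47 of 47.

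The RNA came from formalin-fixed, paraffin-embedded tumors of privately owned dogs of different breeds, with no treatment named in the labels, and was counted by QuantSeq 3′ sequencing, which reads the 3′ ends of polyadenylated transcripts. Group 1 held 5 stage 1 tumors (ages 0.5 to 5.0 years, 1 not given) and group 2a held tumor cell-rich areas of 5 stage 2 tumors (0.6 to 3.0 years). Group 2b held 6 samples of lymphocyte-rich areas of stage 2 (0.3 to 6.0 years), of which 4 were pools of 3 to 4 dogs and 2 came from 1 dog each, and group 3 held 5 lymphocyte-enriched stage 3 tumors (1.5 to 9.0 years). No group was normal skin, so the levels have no tumor-free reference. The areas were chosen under the microscope and were not pure cell populations, and in such samples fewer cells of a type and less RNA per cell cannot be told apart.

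Fibrillar collagens such as types I, III and V form the fibers of the dermis and are made mainly by fibroblasts, while collagen IV builds the sheets of basement membranes under epidermis and around vessels. Collagen VI forms beaded filaments, and collagens XII and XIV sit on the surface of fibrils. MMPs and ADAMTS proteases cut collagens and proteoglycans or trim procollagens, TIMPs block MMPs, and lysyl oxidases cross-link collagen and elastin. Stromal cells, keratinocytes, endothelial cells, macrophages and tumor cells can all contribute transcripts of these families in skin.

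Reads on genes numbered from 2113393 to 3559404 per sample (median 2514859), and the members took between 0.405% of these reads in group 1 replicate 3 and 2.93% in group 1 replicate 2. COL1A1, COL1A2, COL3A1 and TIMP1 together gave 81.5% of all member reads. Group 1 replicate 2 had the highest value of the 21 samples for 17 of the 47 members. The share of RNA fragments over 200 nucleotides (DV200) was 68.5% ± 2.46 (n = 5, SD) in group 1 and 73.7% ± 2.69 (n = 5, SD) in group 2a, 74.6% ± 1.73 (n = 6, SD) in group 2b and 73.2% ± 2.09 (n = 5, SD) in group 3. Group 2b replicate 2 held 2389 normalized counts of 3 skeletal muscle genes, against 0 to 226 in the other 20 samples. Genes listed as tumor cell markers (ITGB2, ITGAX, AIF1, CDH1 and DLA-DRA) summed to between 2728 and 4779 normalized counts in all samples. ITGB2 alone had group medians from 2231 to 2446, and whether the sum measures tumor cell content was not tested. Summed T cell markers lay between 42.5 and 1563 in the tumor cell-rich groups 1 and 2a and between 2232 and 3663 in the lymphocyte-rich groups 2b and 3.

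**Figure D1:**
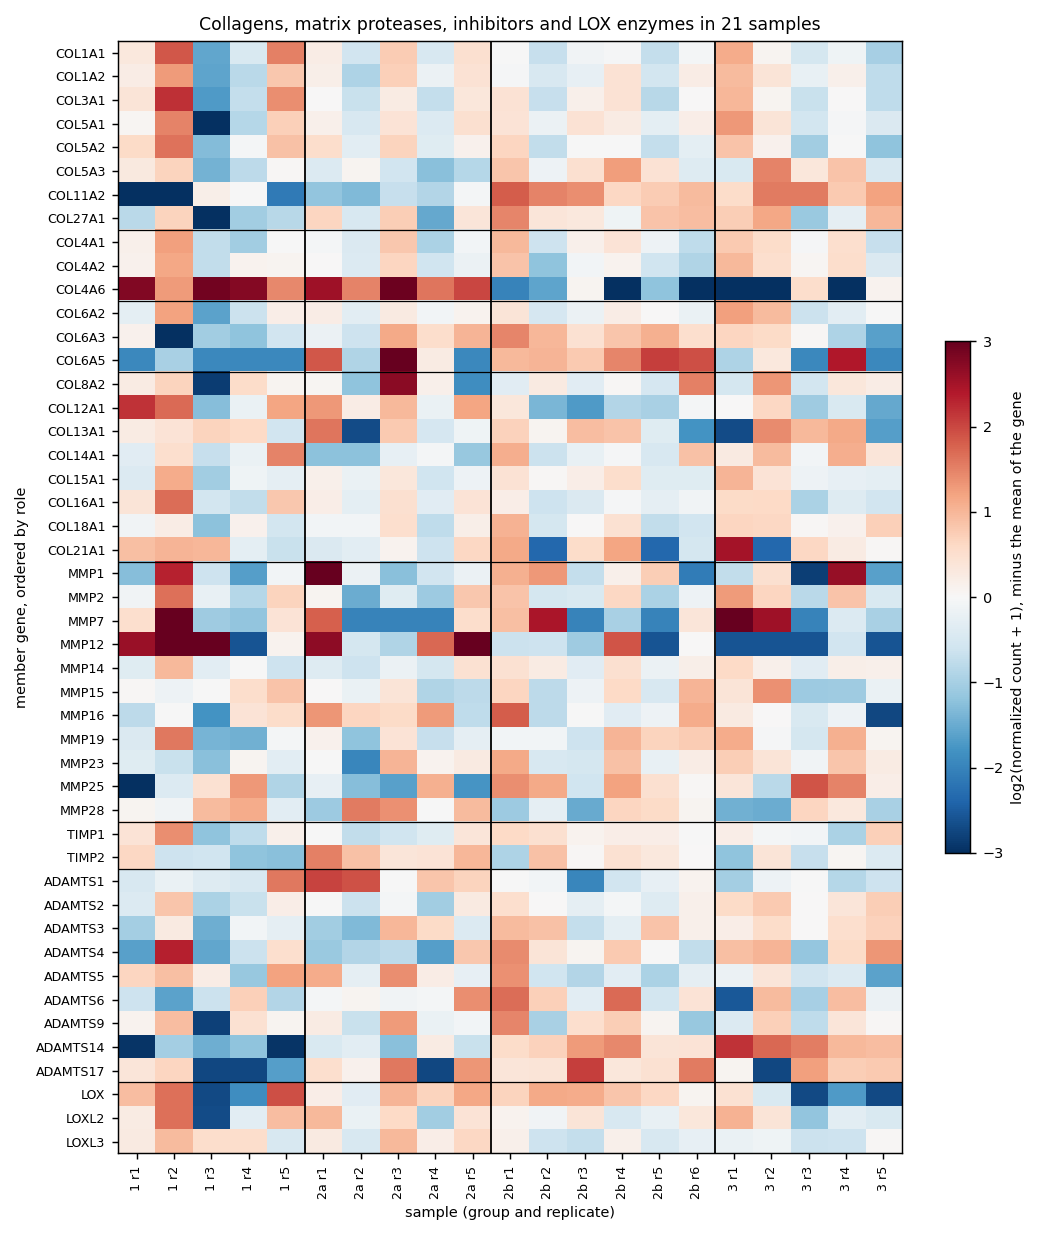
Level of the 47 members (rows, grouped by role) in the 21 samples (columns, grouped by tumor group, r for replicate), as log2 of the normalized count plus 1 minus the mean of the gene, with colors that end at ±3. COL4A6 is high in groups 1 and 2a and low in 2b and 3, COL11A2 and ADAMTS14 show the opposite order, and most fibrillar collagens peak in group 1 replicate 2.

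Levels are given as normalized counts, for which each sample was scaled by 1 size factor. Values of one gene can be compared between samples on this scale, while levels of different genes are not ranked here. COL1A1, which encodes the main chain of collagen I (chromosome 9, 26134702 to 26150789), had 11315, 32939, 3098, 6639 and 25831 normalized counts in the 5 samples of group 1. In group 2a the values were 10552, 6107, 15308, 6546 and 12758. The lowest, median and highest values were 5498, 8548 and 8999 in group 2b, and the 5 samples of group 3 had 19756, 9601, 6279, 8354 and 4558. All 4 groups overlapped, and group 1 held both the lowest and the highest sample.

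The other chain of collagen I and collagen III had their extremes in the same samples. COL1A2 (chromosome 14, 19843097 to 19878889) ranged from 701 to 5091 normalized counts in group 1, from 1122 to 3497 in group 2a, from 1437 to 2861 in group 2b and from 1250 to 4094 in group 3. COL3A1 (chromosome 36, 30884313 to 30921873) ranged from 623 to 9250 in group 1, from 1240 to 2562 in group 2a, from 1140 to 2732 in group 2b and from 1188 to 4034 in group 3. For both, group 1 replicate 3 was lowest and group 1 replicate 2 was highest of the 21 samples. The ratio of COL1A1 to COL1A2 within a sample had group medians of 5.48 (1), 4.44 (2a), 3.77 (2b) and 3.56 (3), with overlapping ranges (4.42 to 7.00, 3.49 to 5.44, 3.09 to 4.73 and 3.46 to 4.83).

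TIMP1, a secreted inhibitor of MMPs (chromosome X, 41404449 to 41408018), had 9697, 19082, 3171, 4285 and 8097 normalized counts in group 1 and 7199, 4338, 4776, 5655 and 9337 in group 2a. In group 2b it ranged from 7171 to 10931 with a median of 8298, and group 3 had 8409, 7022, 6882, 3766 and 11908. The 6 samples of group 2b, of which 4 were pools, stayed within a narrower range than the samples of any other group. The 2 samples from 1 dog each were the highest of group 2b, at 10931 and 10090. The part of pooling in this range was not tested. MMP14, a membrane-bound collagenase (chromosome 8, 3306779 to 3317137), ranged from 356 to 1078 in group 1, from 354 to 749 in group 2a, from 434 to 764 in group 2b and from 434 to 822 in group 3. MMP2, a gelatinase, had medians of 117, 96.6, 101 and 196 normalized counts in groups 1, 2a, 2b and 3, and its highest value, 394, was again in group 1 replicate 2. TIMP1 and MMP14 overlap SYN1 and SLC7A7 in the annotation, and how reads from overlapping genes were shared is not given in the sources used here.

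**Figure D2:**
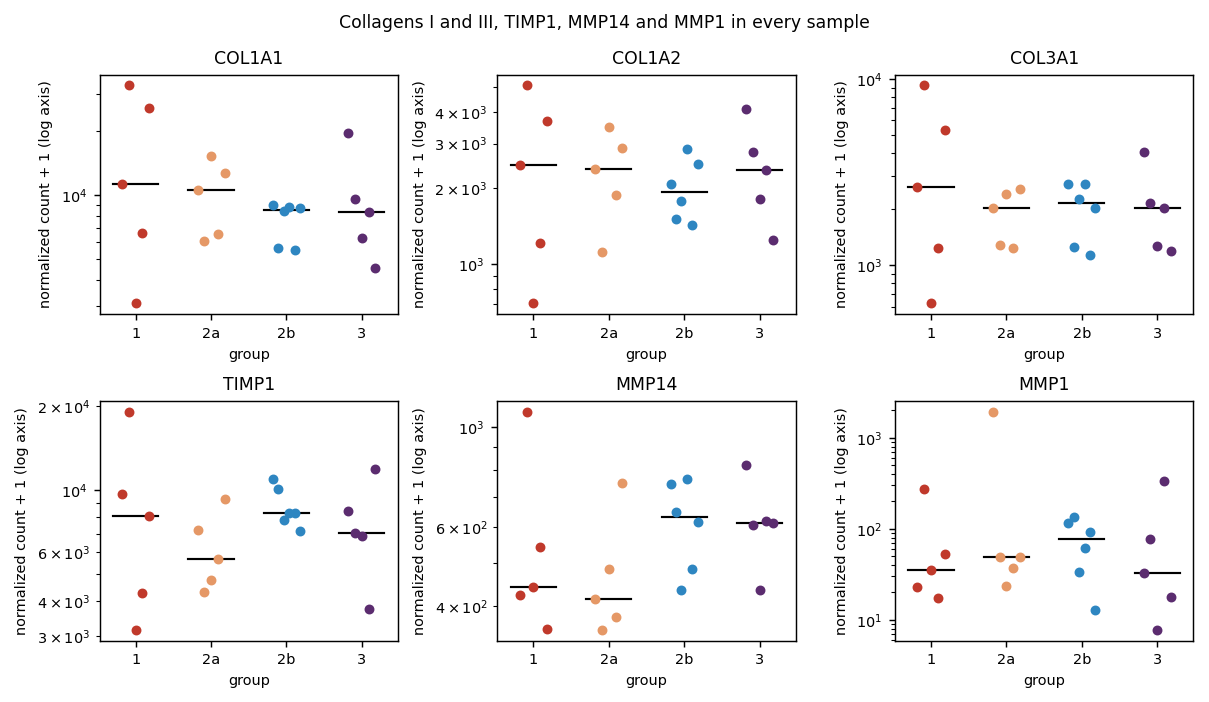
Normalized count plus 1 (log axis) of COL1A1, COL1A2, COL3A1, TIMP1, MMP14 and MMP1 in each sample (points) of groups 1, 2a, 2b and 3, with the group median as a line. The 4 groups overlap for all 6 genes, and 1 sample of group 2a holds 1930 normalized counts of MMP1.

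The fibroblast markers were compared beside these collagens, since fibroblasts are a main source of fibrillar collagen. The 8 markers (PDGFRA, PDGFRB, THY1, DCN, LUM, DPT, PI16 and MFAP5) summed to between 1698 and 4711 normalized counts in group 1, 1501 and 4129 in group 2a, 2322 and 3831 in group 2b, and 2402 and 4694 in group 3. Group 1 replicates 2 and 5, which had the highest COL1A1, had fibroblast sums of 4403 and 4711. Group 3 replicates 2 and 4 had sums of 4694 and 4059, with COL1A1 at 9601 and 8354. Group 2a replicate 3 and group 3 replicate 1 had sums of 4129 and 3699, with COL1A1 at 15308 and 19756. The markers in the sum did not move together. THY1 had medians of 279, 220, 714 and 953 in groups 1, 2a, 2b and 3, and LUM had 297, 236, 190 and 191. The part of fibroblasts in the collagen values was not tested.

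Stages were compared first between the tumor cell-rich groups. In group 2a compared to group 1, 34 of the 47 members could be tested with edgeR (10 or more reads in 5 or more of these 10 samples) and 0 were DEGs, defined as an adjusted p of at most 0.05 and a log2 fold change of 1 or more in either direction. Of all tested genes, 0.393% were DEGs, a share that was itself 0 in 7 of the 10 fits that left out 1 sample each and at most 0.71% in the others. At an unadjusted p under 0.05 there were 2 members (17.9% of all tested genes), and DESeq2 called 1, TIMP2 (2.36% of all tested genes). The median log2 fold change of the members was −0.19, against −0.02 for all 11200 tested genes, with 10 members above 0 and 24 below. With samples left out in turn this median ranged from −0.35 to 0.16, so its direction turned. Of 17 tested collagens, 14 were below 0, including 6 of 8 fibrillar and 3 of 3 collagen IV chains. Group 1 replicate 2 was the highest of the 21 samples for 5 of these 8 fibrillar and 2 of these 3 collagen IV chains. Collagens that vary together in 1 sample are not separate observations, and their shared direction was not tested. All 34 tested members overlapped between the groups, where 5.65% of all tested genes had no overlap.

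The members with the smallest p in that comparison were TIMP2, COL14A1 and ADAMTS1. TIMP2, an inhibitor that also takes part in the activation of MMP2 at the cell surface (chromosome 9, 3369678 to 3414817), had 110, 70.9, 48.9, 50.3 and 76.5 normalized counts in group 2a. In group 1 it had 58.6, 24.3, 24.6, 15.7 and 15.3, so that only group 1 replicate 1 reached into the range of group 2a. Its log2 fold change was 1.37 (SE 0.396, edgeR adjusted p = 0.108; exact permutation p = 0.0238, 2-sided), from 27.7 ± 17.8 (n = 5, SD) to 71.4 ± 25.0 (n = 5, SD). Without group 1 replicate 1 the log2 fold change was 1.86 and the adjusted p 0.0490, and over all alternatives the adjusted p ranged from 0.0244 to 0.682.

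COL14A1, a collagen on the surface of fibrils, had 61.2 ± 25.7 normalized counts (n = 5, SD) in group 2a and 129 ± 88.8 (n = 5, SD) in group 1. On the log2 scale the fold change was −1.07 (SE 0.422, edgeR adjusted p = 0.211; exact permutation p = 0.0714) and turned to 0.06 with DV200 as a covariate. ADAMTS1, which cuts large proteoglycans such as versican (chromosome 31, 22720934 to 22729448), had 49.1, 59.9, 51.9, 48.8 and 206 in group 1 and 284, 262, 67.8, 122 and 108 in group 2a. The log2 fold change was 1.04 (SE 0.497, edgeR adjusted p = 0.302; exact permutation p = 0.0952), and group 1 replicate 5 lay inside the range of group 2a.

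The genes that held most member reads did not reach the threshold in this comparison. COL1A1 had a log2 fold change of −0.64 (SE 0.538, edgeR adjusted p = 0.581) and COL3A1 one of −1.01 (SE 0.583, adjusted p = 0.395). For TIMP1 the value was −0.50 (SE 0.426, adjusted p = 0.582), and for MMP14, which was read beside them, it was −0.25 (SE 0.315, adjusted p = 0.731). Without group 1 replicate 2, the MMP14 value was 0.12.

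MMP1, an interstitial collagenase (chromosome 5, 29119065 to 29127510), is described because of a single sample and was chosen after its values were seen. Group 2a replicate 1 had 1930 normalized counts of MMP1, while the other samples of group 2a had 47.9, 22.2, 36.3 and 47.5 and group 1 had 21.7, 271, 34.6, 16.5 and 51.4. In the same sample MMP13, another collagenase, was at 60.3, and MMP3, which did not exceed 0 elsewhere, was at 5.57. Both missed the count rule for members. Between the groups MMP1 had a log2 fold change of 2.39 (SE 1.28, edgeR adjusted p = 0.354; exact permutation p = 0.579), and without that sample it was −1.03.

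Keratinocyte markers were read in the same comparison, and 0 of 8 tested ones were called. The 9 markers (KRT5, KRT14, KRT10, KRT1, KRT15, DSG1, DSP, PKP1 and COL17A1) summed to between 758 and 12476 normalized counts in group 1 and between 232 and 2981 in group 2a, with 8 of 8 tested markers below 0. Their part in the member values was not tested.

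In group 3 compared to group 2b, 37 members were tested and 0 were DEGs by edgeR, with 2 at an unadjusted p under 0.05, beside 13.1% of all tested genes, and 0 called by DESeq2, beside 0.402%. The share of DEGs among all 11685 tested genes was 0.0428%. Members above 0 numbered 25 and members below 0 numbered 12, with a median log2 fold change of 0.12 against 0.01 for all genes. With samples left out in turn the median of the members ranged from −0.0043 to 0.25. Of the 18 tested collagens 15 were above 0. The samples of the groups overlapped for all 37 tested members, where 2.11% of all tested genes had no overlap.

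ADAMTS2, which removes the amino-terminal propeptide of fibrillar procollagens, had 184, 213, 125, 160 and 205 normalized counts in group 3. In group 2b it ranged from 94.5 to 176 with a median of 122. The means were 178 ± 35.8 (n = 5, SD) and 126 ± 29.1 (n = 6, SD), a log2 fold change of 0.49 (SE 0.186, edgeR adjusted p = 0.287; exact permutation p = 0.0325).

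COL6A3, a chain of collagen VI (chromosome 25, 48253810 to 48333969), had 14.0, 13.2, 8.73, 4.03 and 2.09 in group 3 and between 12.1 and 25.2 in group 2b. Raw reads of COL6A3 were 14, 14, 9, 4 and 2 in group 3 and 13 to 27 in group 2b. COL6A3 thus met the count filter here only with the samples of group 2b, where it was high. Its result in this comparison is not independent of that filter. Its log2 fold change was −1.02 (SE 0.472, edgeR adjusted p = 0.375; exact permutation p = 0.0152). ADAMTS14, a relative of ADAMTS2 that also trims procollagen, had a log2 fold change of 0.72 (SE 0.383, edgeR adjusted p = 0.445; exact permutation p = 0.0541).

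The differences of the abundant genes between groups 2b and 3 did not pass the threshold. The log2 fold change was 0.33 for COL1A1 (SE 0.296, edgeR adjusted p = 0.672), 0.07 for COL3A1 (SE 0.309, adjusted p = 0.949) and −0.21 for TIMP1 (SE 0.223, adjusted p = 0.732). MMP14 had 617 ± 138 normalized counts (n = 5, SD) in group 3 and 615 ± 135 (n = 6, SD) in group 2b. Without group 3 replicate 1, which had the highest COL1A1 of the lymphocyte-rich samples, the COL1A1 value was −0.10 and the COL3A1 value −0.29. LOX, the founding lysyl oxidase, was too low to be tested here, with 5.90 to 13.4 normalized counts in group 2b and 7.99, 3.77, 0, 1.01 and 0 in group 3.

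Lymphocyte-rich and tumor cell-rich areas differed in a small number of members. Over all 21 samples (groups 2b and 3 against groups 1 and 2a, edgeR with all 4 groups in the fit), 47 members were tested and 6 were DEGs, 2 higher and 4 lower in lymphocyte-rich samples. That was 12.8% of the members, beside 11.9% of all 12505 tested genes, of which 7.61% were called higher and 4.29% lower. The higher members were ADAMTS14 and COL11A2, and the lower ones COL4A6, MMP12, COL12A1 and ADAMTS1. By role these were 1 of 8 fibrillar collagens, 1 of 3 collagen IV chains, 1 of 8 other collagens, 1 of 11 MMPs and 2 of 9 ADAMTS proteases, with 0 of 3 collagen VI chains, 0 of 2 TIMPs and 0 of 3 lysyl oxidases. The median log2 fold change of the members was 0.11, against 0.01 for all genes.

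Within stage 2 alone (group 2b compared to group 2a), 36 members were tested and 5 were DEGs, which was 13.9% beside 9.55% of all 11545 tested genes, of which 5.98% were called higher and 3.57% lower. These were COL11A2 and ADAMTS14, higher in group 2b, and COL4A6, ADAMTS1 and COL12A1, lower in group 2b. The samples did not overlap for 3 members, COL11A2, ADAMTS14 and COL4A6, where 10.5% of all tested genes had no overlap. The same 3 members were those without overlap between the 10 tumor cell-rich and the 11 lymphocyte-rich samples, where 2.29% of all tested genes had none. Both comparisons use groups 2a and 2b and are not independent.

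**Figure D3:**
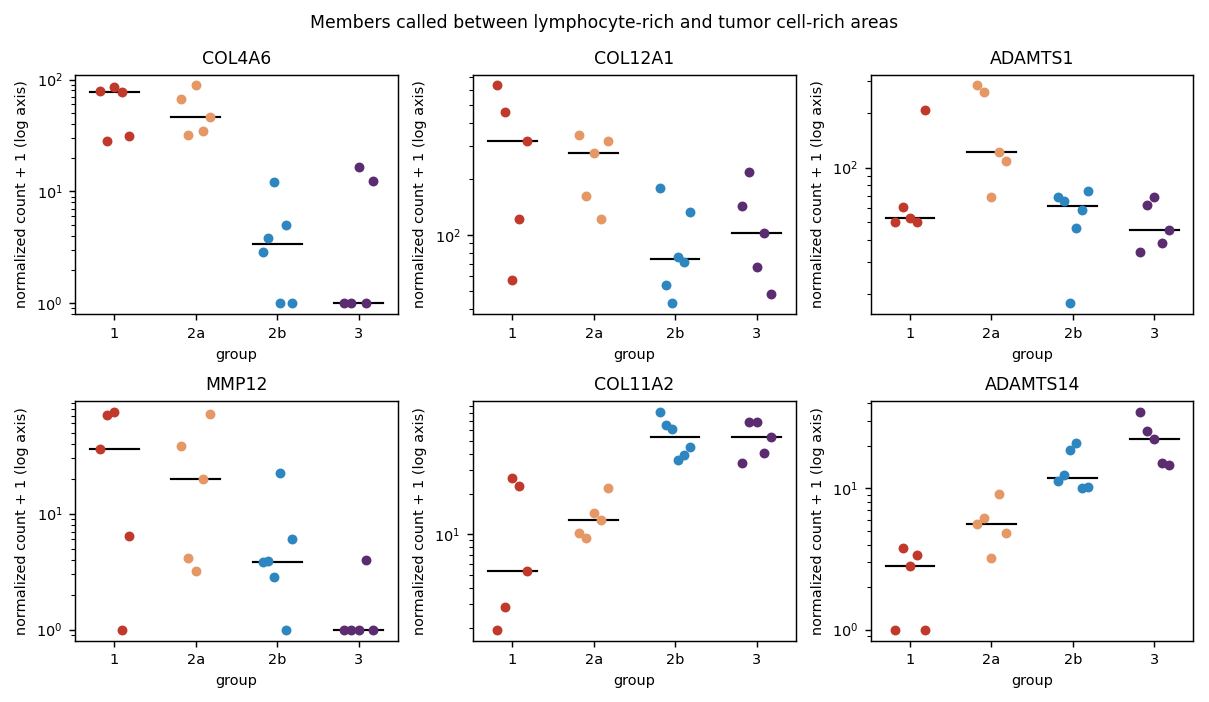
Normalized count plus 1 (log axis) of the 6 members called between lymphocyte-rich (2b and 3) and tumor cell-rich (1 and 2a) samples, with 1 point per sample and the group median as a line. COL4A6 separates at 27.1 and above against 15.5 and below, COL11A2 at 25.5 and below against 33.0 and above, and ADAMTS14 at 8.19 and below against 9.04 and above.

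COL4A6 encodes a chain of collagen IV found in the basement membrane of skin and smooth muscle (chromosome X, 82301801 to 82589247). Its values were 78.4, 27.1, 84.7, 76.4 and 30.6 normalized counts in group 1 and 65.9, 31.3, 87.8, 33.9 and 45.5 in group 2a. In group 2b they were 1.87, 2.87, 11.2, 0, 4.02 and 0, and in group 3 they were 0, 0, 15.5, 0 and 11.5. Each tumor cell-rich sample lay above each lymphocyte-rich sample, and 5 of the 11 lymphocyte-rich samples had no read, which allows up to 3 counts. At least 10 reads of COL4A6 were found in 10 tumor cell-rich and 3 lymphocyte-rich samples, and within stage 2 in 5 samples of group 2a and 1 of group 2b. It thus met the count rule only through the samples where it was high. Its calls and lack of overlap are therefore not independent of that rule.

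Over all samples COL4A6 had a log2 fold change of −3.69 (SE 0.587, edgeR adjusted p = 6.91e-05), and within stage 2 it was −3.95 (SE 0.637, edgeR adjusted p = 0.000963; exact permutation p = 0.0043). The other collagen IV members, COL4A1 and COL4A2, did not share this pattern. COL4A1 had 528 ± 297 normalized counts (n = 10, SD) in tumor cell-rich and 587 ± 234 (n = 11, SD) in lymphocyte-rich samples, and COL4A2 had 767 ± 343 (n = 10, SD) and 766 ± 356 (n = 11, SD). COL4A5, whose product assembles with that of COL4A6, reached 10 counts in 1 sample only and was not a member. Its values went up to 21.1 in group 2a replicate 3 and stayed at 6.60 or below in the lymphocyte-rich samples.

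Keratinocytes are a known source of COL4A6, so their markers stand beside it. The keratinocyte sums were highest in group 1 replicates 1 and 4, at 12306 and 12476, where COL4A6 was at 78.4 and 76.4. The keratinocyte sum was 232 in group 2a replicate 3, the lowest of the tumor cell-rich samples, where COL4A6 was at 87.8, its highest value of all samples. In group 3 replicates 2 and 5 the keratinocyte sums were 6231 and 5969, and COL4A6 was at 0 and 11.5. Over the area comparison 7 of 8 tested keratinocyte markers were below 0, with a median log2 fold change of −0.99, and 0 were called. The part of keratinocytes in the COL4A6 values was not tested.

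COL12A1, a fibril-associated collagen (chromosome 12, 36947167 to 37063520), had 632, 457, 56.5, 120 and 318 normalized counts in group 1 and 342, 162, 274, 120 and 317 in group 2a. It ranged from 41.9 to 177 with a median of 72.8 in group 2b, and group 3 had 141, 215, 66.0, 101 and 47.1. The ranges overlapped, and 6 of the 10 tumor cell-rich samples lay above the highest lymphocyte-rich sample. Its log2 fold change was −1.44 (SE 0.364, edgeR adjusted p = 0.00458) over all samples and −1.41 (SE 0.367, edgeR adjusted p = 0.0169; exact permutation p = 0.0195) within stage 2. With the 4 pooled samples of group 2b left out, the values were −1.31 (edgeR adjusted p = 0.0718) over all samples and −1.06 (edgeR adjusted p = 0.379) within stage 2. These fits kept 2 samples of group 2b. They called 8.64% of all tested genes over all samples, in place of 11.9%, and 1.05% within stage 2, in place of 9.55%. The call within stage 2 also ended with all 4 groups in the fit (−1.41, edgeR adjusted p = 0.0668).

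ADAMTS1 had a median of 88.1 normalized counts in tumor cell-rich samples (48.8 to 284) and of 57.3 in lymphocyte-rich samples (16.8 to 73.3). The 4 highest values over all samples were in group 1 replicate 5 and in group 2a replicates 1, 2 and 4, and the other samples of group 1 lay within the lymphocyte-rich range. The log2 fold change was −1.20 (SE 0.311, edgeR adjusted p = 0.00554) over all samples and −1.64 (SE 0.389, edgeR adjusted p = 0.0103; exact permutation p = 0.0065) within stage 2. Over all samples the call ended with DV200 as a covariate (−0.83, adjusted p = 0.125) and without group 1 replicate 5 (−0.87, adjusted p = 0.0169, below the fold threshold). Leaving out the pooled samples of group 2b gave −1.08 (edgeR adjusted p = 0.0614) over all samples and −1.34 (edgeR adjusted p = 0.279) within stage 2. Calls over all tested genes also fell without the pools, to 8.64% over all samples and to 1.05% within stage 2.

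MMP12, the macrophage elastase (chromosome 5, 29059239 to 29073925), had 35.0, 69.3, 74.7, 0 and 5.46 normalized counts in group 1 and 37.1, 3.13, 2.22, 18.7 and 70.7 in group 2a. In group 2b the values were 2.80, 2.87, 1.86, 21.2, 0 and 5.06, and in group 3 they were 0, 0, 0, 3.02 and 0. Thus the tumor cell-rich samples spread from 0 to 74.7, while 10 of the 11 lymphocyte-rich samples were at 5.06 or below. Its log2 fold change was −3.96 (SE 0.868, edgeR adjusted p = 0.0015). Summed macrophage markers (CD68, CD163, MSR1, C1QA, C1QB, C1QC and MARCO) stood at 824 to 7236 normalized counts in tumor cell-rich and 3340 to 9511 in lymphocyte-rich samples, with 5 of 7 called higher. The part of macrophages in the MMP12 values was not tested. At least 10 reads of MMP12 were found in 6 tumor cell-rich samples and 1 lymphocyte-rich sample. MMP12 thus met the count rule only through the samples where it was high, and its call is not independent of that rule. MMP12 was not tested within stage 2 because too few samples reached 10 counts.

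COL11A2, a chain of the minor fibrillar collagen XI known mainly from cartilage, lies on chromosome 12 from 2781723 to 2811021. It had 0.945, 1.87, 25.5, 22.0 and 4.37 normalized counts in group 1 and 9.28, 8.34, 13.3, 11.7 and 21.3 in group 2a. Group 2b had 81.2, 64.2, 60.5, 35.0, 38.2 and 43.8, and group 3 had 33.0, 67.9, 67.9, 39.3 and 52.4. Each lymphocyte-rich sample was above each tumor cell-rich sample. Within stage 2, at least 10 reads were found in 6 samples of group 2b and 4 of group 2a. There COL11A2 met the count filter only with the samples where it was high, so its stage 2 result is not independent of that filter. It was higher by a log2 fold change of 2.14 (SE 0.377, edgeR adjusted p = 0.000198) over all samples and 2.06 (SE 0.325, edgeR adjusted p = 0.000819; exact permutation p = 0.0022, the smallest that 6 against 5 samples allow) within stage 2. COL11A1, the partner chain, reached 10 counts in 4 samples and was not a member.

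ADAMTS14 (chromosome 4, 22263803 to 22341640) had 0, 2.81, 1.82, 2.36 and 0 normalized counts in group 1, 4.64, 5.21, 2.22, 8.19 and 3.87 in group 2a, 10.3, 11.5, 17.7, 20.2, 9.04 and 9.27 in group 2b and 34.0, 24.5, 21.3, 14.1 and 13.6 in group 3. The medians of the groups stood in the order 1, 2a, 2b and 3, with overlap between neighboring groups except between 2a and 2b. Over all samples its log2 fold change was 2.60 (SE 0.398, edgeR adjusted p = 4.5e-05). Within stage 2 it was 1.41 (SE 0.42, edgeR adjusted p = 0.034). At least 10 reads were found in 10 lymphocyte-rich and 0 tumor cell-rich samples, so ADAMTS14 met the count rule only through the samples where it was high, and its calls and its lack of overlap are not independent of that rule. Within stage 2 the call ended with all genes with any read (1.39, edgeR adjusted p = 0.111), with all 4 groups in the fit (1.41, edgeR adjusted p = 0.0792), with the replicate block (1.48, edgeR adjusted p = 0.0951) and without group 2a replicate 1, 2, 3 or 5 (edgeR adjusted p from 0.0604 to 0.0644). Leaving out any of 5 samples of group 2b took the gene under the count filter.

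Lymphocyte markers differed between the areas as well. T cell markers were called higher in lymphocyte-rich samples for 6 of 6 genes and B cell markers for 5 of 5, with summed B cell markers at 9.38 to 73.0 normalized counts in tumor cell-rich and 85.9 to 1221 in lymphocyte-rich samples. Within the lymphocyte-rich samples the B cell sum was 85.9, 143 and 94.3 in group 3 replicates 1, 2 and 5, where COL11A2 was at 33.0, 67.9 and 52.4 and ADAMTS14 at 34.0, 24.5 and 13.6. The part of these cells in COL11A2 and ADAMTS14 was not tested.

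LOXL3, a lysyl oxidase that overlaps DOK1 in the annotation, and COL5A3, a chain of collagen V, had an adjusted p of at most 0.05 below the fold threshold and are named after their values were seen. LOXL3 had medians of 165 normalized counts (88.6 to 244) in tumor cell-rich and 105 (75.4 to 139) in lymphocyte-rich samples, and COL5A3 had medians of 16.6 (8.20 to 38.4) and 32.2 (16.8 to 67.9). Log2 fold changes were −0.69 for LOXL3 (SE 0.182, edgeR adjusted p = 0.00672) and 0.85 for COL5A3 (SE 0.313, edgeR adjusted p = 0.0439). Over the alternatives the adjusted p reached 0.0566 for LOXL3 and 0.174 for COL5A3, both with the pools of group 2b left out. With them, 8 of 47 members had an adjusted p of at most 0.05, beside 29.5% of all tested genes. COL1A1, COL3A1, TIMP1 and MMP14 were not called, with log2 fold changes of −0.57 for COL1A1 (SE 0.321, edgeR adjusted p = 0.194), −0.38 for COL3A1 (SE 0.344, adjusted p = 0.444), 0.13 for TIMP1 (SE 0.247, adjusted p = 0.743) and 0.24 for MMP14 (SE 0.185, adjusted p = 0.349). Within stage 2 these 4 genes had log2 fold changes of −0.42, 0.08, 0.48 and 0.36, with adjusted p-values from 0.118 to 0.874 from edgeR. Leaving out group 1 replicate 2 and group 2b replicate 2, which stood apart, gave 9 members called over all samples, the same 6 with COL5A3, COL27A1 and ADAMTS4, beside 12.3% of all genes tested in that fit.

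**Figure D4:**
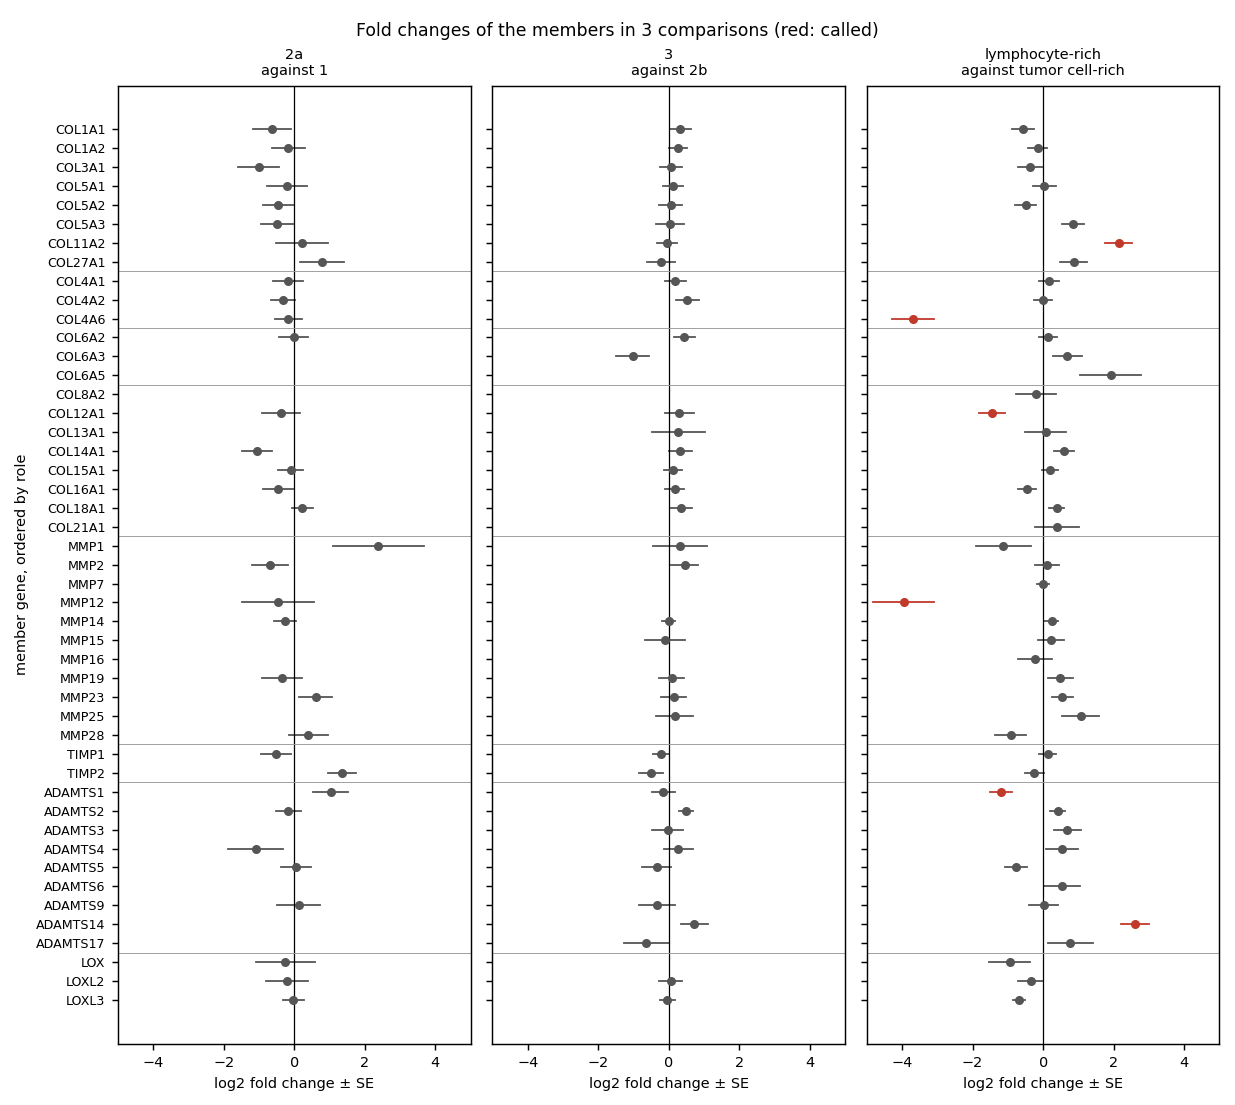
Log2 fold change (edgeR) of each tested member, grouped by role, with a standard error derived from the F statistic. Panels show group 2a against 1, group 3 against 2b and lymphocyte-rich against tumor cell-rich samples, with called members in red. There are 0 red points in the stage comparisons and 6 in the comparison of areas, where COL4A6 and MMP12 lie furthest below 0.

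The members not described so far are given by their ranges over tumor cell-rich and lymphocyte-rich samples. Among fibrillar collagens, COL5A1 ranged from 47.4 to 1107 normalized counts (median 427) and from 272 to 973 (median 455), and COL5A2 ranged from 153 to 1176 (median 481) and from 165 to 694 (median 377). COL27A1 ranged from 1.82 to 37.8 (median 14.0) in tumor cell-rich and from 9.70 to 62.5 (median 38.0) in lymphocyte-rich samples. COL6A2, a chain of collagen VI, ranged from 50.1 to 358 (median 155) and from 98.9 to 363 (median 154). COL15A1 and COL18A1, basement membrane collagens that give rise to endostatin-like fragments, had medians of 144 and 169, and of 164 and 190. COL16A1 had a median of 135 (65.3 to 355) in tumor cell-rich and of 91.4 (56.3 to 168) in lymphocyte-rich samples. COL8A2, COL13A1 and COL21A1 had medians between 3.80 and 9.34 in both areas. Each of these members overlapped between the areas.

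Among the proteases, the aggrecan- and versican-cutting ADAMTS5 had a median of 435 normalized counts (146 to 839) in tumor cell-rich and of 240 (105 to 829) in lymphocyte-rich samples. ADAMTS4, its close relative, had medians of 17.2 (9.36 to 161) and 47.4 (13.6 to 85.0). The medians of ADAMTS3, ADAMTS6, ADAMTS9 and ADAMTS17 lay between 4.54 and 13.2 in both areas. MMP19 had medians of 33.0 and 45.0, MMP23 of 24.4 and 32.5, MMP25 of 5.46 and 13.1 and MMP28 of 11.0 and 5.75, with the tumor cell-rich value first in each case. MMP7, MMP15 and MMP16 had medians between 2.01 and 8.31, and MMP7 reached 72.1 in 1 tumor cell-rich sample. LOXL2, a lysyl oxidase, had a median of 102 (11.8 to 256) in tumor cell-rich and of 74.7 (34.9 to 168) in lymphocyte-rich samples. These values are a description, and all ranges overlapped.

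The difference between the stage effects was also tested (3 minus 2b, less 2a minus 1), and 2 of 47 members were called, beside 3.97% of all 12505 tested genes. Both were below 0, a direction in which 2.64% of all tested genes were called. TIMP2, which did not pass the threshold between groups 2a and 1, had 71.4 ± 25.0 normalized counts (n = 5, SD) in group 2a and 27.7 ± 17.8 (n = 5, SD) in group 1. It had 44.5 ± 17.0 normalized counts (n = 6, SD) in group 2b and 31.4 ± 13.4 (n = 5, SD) in group 3. The difference was −1.87 on the log2 scale (SE 0.541, edgeR adjusted p = 0.0465). COL6A5, a chain of collagen VI expressed in skin (chromosome 23, 28108934 to 28238456), had 0, 0.936, 0, 0 and 0 normalized counts in group 1, 13.0, 1.04, 35.5, 3.51 and 0 in group 2a, 6.53, 6.70, 5.59, 9.55, 15.1 and 13.5 in group 2b and 0.999, 3.77, 0, 19.1 and 0 in group 3. Its fitted difference was −6.10 (SE 1.73, edgeR adjusted p = 0.0431), a value that depends on the treatment of the samples at 0. COL6A3 had −2.56 (SE 0.839, edgeR adjusted p = 0.0739).

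Neither call was stable. With DV200 as a covariate 0 members were called, beside 0.464% of all tested genes. The edgeR adjusted p-values were then 0.2 for TIMP2 and 0.362 for COL6A5. When each of the 21 samples was left out in turn, TIMP2 lost the call in 17 fits, with a difference from −2.33 to −1.66. COL6A5 lost it in 10 fits and fell under the count filter in 5 more.

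Other matrix genes were taken from a list of 35 (proteoglycans, glycoproteins, procollagen processing enzymes and regulators), of which 28 were tested between areas. In lymphocyte-rich samples 1 of the 28 was called higher and 1 lower, beside 7.61% and 4.29% of all tested genes. The lower one was THBS2, a matricellular glycoprotein that binds MMP2 (log2 fold change −1.15, SE 0.355, edgeR adjusted p = 0.0179), with group medians of 97.3, 103, 36.1 and 33.0 normalized counts in groups 1, 2a, 2b and 3. In group 2a against 1, 3 against 2b and 2b against 2a, 0 of 27, 28 and 28 tested genes were called. FN1, which encodes fibronectin, came close within stage 2 (log2 fold change 0.99, SE 0.205, edgeR adjusted p = 0.00466).

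Some members rested on few reads. COL21A1, COL6A5, COL8A2, MMP16 and MMP7 reached 10 counts in 5 samples each and were just inside the rule, and ADAMTS6 did so in 6. COL11A1 in 4 and MMP13 in 3 samples were just outside. MMP9, TIMP3 and LOXL1, well-known members of their families, had at least 10 counts in 1, 0 and 1 of the 21 samples, which at this depth of 3′ reads does not show that they are absent. MMP9 had its highest value at 41.6 normalized counts.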

How the data were processed

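Sample labels gave the groups and replicate numbers, and 0 columns were of an unknown sample. The authors used Cutadapt for trimming and STAR for alignment to UU_Cfam_GSD_1.0 and compared groups with DESeq2, and the submitters' processing notes also name featureCounts, whose settings are not given in the sources used here. For each gene in each sample, the authors deposited the raw count and a signal, called the normalized count. Division of raw by normalized values gave 1 size factor per sample. They also deposited the mean of the signal, a log2 fold change with its error, and a p-value, plain and adjusted, for their own comparisons, which were not used.

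Raw counts were tested with the quasi-likelihood F-test of edgeR 4.0.16 (R 4.3.3; TMM factors; 10 or more reads in 5 or more samples of the fit; Benjamini-Hochberg adjustment over all genes tested), and the scripts were tested on simulated data. Of 200 genes simulated with a 2-fold change, an adjusted p of at most 0.05 found 12 in group 2a against 1 and 72 in group 3 against 2b. With a 4-fold change it found 163 and 164 of 200. The 0 DEGs of the stage comparisons thus do not show that changes near 2-fold are absent. Stage comparisons and stage 2 areas used their own 2 groups, and the other comparisons used all 4. The edgeR test gives no standard error. The SE printed with a log2 fold change was derived as its absolute size divided by the square root of the F statistic. Exact permutation tests were 2-sided on log2(normalized count + 1), with a smallest possible p of 0.0079 for 5 against 5 and 0.0022 for 5 against 6 samples. Other steps ran in Python 3.11.15 (scipy 1.17.1, numpy 2.4.6, pandas 2.3.3, matplotlib 3.10.9). Alternatives were DESeq2 1.42.0, other size factors, all genes with any read, all 4 groups, adjustment for DV200, a replicate block, the 2b pools left out and each sample left out in turn. Leaving out the libraries that stood apart was added after seeing the data.

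Named genes were called members, the 3 smallest p where fewer than 3 were called, and a list of 19 well-known members. Members and lists were chosen with earlier results of these data known. The same replicate number stands for different dogs, and no 2 replicates held near-identical counts. P-values measure the spread between dogs or pools, and limits at 0 cover counting error only. Some genes of the series are not reported here.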

Additional observations from a re-analysis of the deposited data

Results flagged for a closer look

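In 84 sets of the values of 1 named member in 1 group, 8 held a sample that lay far from the rest. The rule flags about 1 in 20 sets of normally distributed values. It was applied to untransformed normalized counts, some with most samples at 0, so that rate need not hold here. TIMP2 was high in group 1 replicate 1 (58.6 normalized counts), and ADAMTS1 was high in group 1 replicate 5 (206). MMP14 was high in group 1 replicate 2 (1078), the sample that was highest for 17 of 47 members. MMP12 was high in group 2b replicate 4 (21.2), a pool of dogs, and in group 3 replicate 4 (3.02), where the other samples were at 0. COL4A6 was high in group 2b replicate 3 (11.2), another pool. COL6A5 was high in group 1 replicate 2 (0.936, which was 1 read) and in group 3 replicate 4 (19.1). The effect of stage differed between tumor cell-rich and lymphocyte-rich areas by −1.87 for TIMP2 and by −6.10 for COL6A5 on the log2 scale, by the test of the difference itself. These 2 calls were not stable. TIMP2 lost the call in 17 of the 21 fits that left out 1 sample, and COL6A5 lost it in 10 and was untested in 5 more. Both calls also ended with DV200 as a covariate.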

How the results depend on the processing

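Few reads and small groups limit low members most, since 13 of 47 could not be tested in group 2a against 1 and 10 in group 3 against 2b. The number of members called in group 2a against 1 was 1 with DESeq2 (TIMP2) and 1 with all 4 groups in the fit (COL6A5), in place of 0, and 0 to 1 when samples were left out in turn. Of all tested genes, 2.36% were called with DESeq2 and 1.42% with all 4 groups, in place of 0.393%, and 0% to 0.71% with samples left out. In group 3 against 2b it was 0 in all alternatives and 0 to 0 with samples left out, where 0% to 0.433% of all tested genes were called. In group 2b against 2a it was 3 with all 4 groups and 2 without the pools, in place of 5, and 4 to 6 with samples left out. Of all tested genes, 8.13% were called with all 4 groups and 1.05% without the pools, in place of 9.55%, and 8.03% to 10.4% with samples left out. For lymphocyte-rich against tumor cell-rich samples it was 5 to 8 with samples left out, in place of 6. Beside this, 11.0% to 12.7% of all tested genes were called, in place of 11.9%. COL4A6, COL11A2, ADAMTS14 and MMP12 were called in all alternatives. Of these, COL4A6, ADAMTS14 and MMP12 met the count rule only through the area where they were high. Their calls are therefore not independent of that rule in any of the fits. For the difference between stage effects it was 0 with all genes, 0 with DV200 and 0 with the replicate block, in place of 2, and 0 to 2 with samples left out. In the same order, 1.77%, 0.464% and 3.13% of all tested genes were called, in place of 3.97%, and 2.03% to 4.61% with samples left out. The cause of these changes was not tested.

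Some directions turned. In group 2a against 1 with DV200, COL14A1 went from −1.07 to 0.056 and MMP1 from 2.39 to −1.69. MMP14 in group 3 against 2b was −0.013 with upper-quartile factors, −0.0056 with all genes, −0.11 with DV200 and −0.18 without the pools. COL3A1 in group 2b against 2a was −0.013 with DV200. With samples left out, MMP1 ranged from −1.03 to 3.76 and MMP14 from −0.48 to 0.12 in group 2a against 1, COL1A1 from −0.10 to 0.51, COL3A1 from −0.29 to 0.22 and MMP14 from −0.12 to 0.11 in group 3 against 2b, and COL3A1 from −0.039 to 0.22 in group 2b against 2a.

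Samples with the same replicate number did not deviate together (correlations from −0.27 to 0.14), so the numbers do not pair them. With the replicate block, ADAMTS14 in group 2b against 2a lost its call (log2 fold change 1.48, edgeR adjusted p = 0.0951). In that fit 4 members were called, beside 8.09% of all tested genes.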
